A study of Homo sapiens with 3 samples.

Results

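MM.1S is a human multiple myeloma cell line of plasma cell origin. Its mitotic cells in monoculture were chosen by the share of their transcripts that came from 11 genes of cell division (UBE2C, CENPE, MKI67, TOP2A, TPX2, ANLN, CENPF, CKAP2L, KIF14, KIF20B and CEP55). Transcripts were counted as unique molecular identifiers (UMIs), which tag each captured RNA molecule once. Among 3870 cells with at least 1000 UMIs, the 581 cells in the top 15% of this score were taken as members. They were compared with 2113 cells without a UMI on the 11 genes, called score-negative cells. The remaining 1176 cells had some score UMIs but fell short of the limit and are called intermediate cells. The whole series held 11822 cell barcodes in 3 Drop-seq libraries, 1 each of MM.1S alone, of HS-5 alone and of the lines after 4 h of coculture, where HS-5 is a human cell line from the stroma of the bone marrow. No culture received a treatment. With 1 library per condition and cells that are not replicates, no test was made, and every 95% interval covers counting error only.

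A dividing cell copies its DNA in S phase and separates the copies in mitosis, and the genes of both steps are transcribed in waves. Genes of DNA replication and the histones come first. Those of the G2 phase and mitosis (G2/M) follow and encode the kinases and cyclins that start mitosis, the spindle that moves the chromosomes, the kinetochores by which chromosomes attach to it, and the anaphase promoting complex that ends it. In a myeloma line, this programme runs in cells that also carry the secretory machinery of a plasma cell. The counts measure mRNA, so they show which programme a cell expressed and not the phase it was in.

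In the MM.1S library, 10433182 UMIs fell on 3994 barcodes. The median barcode had 2183 UMIs, against 949 in the HS-5 library and 789 in the coculture. Members were deeper than score-negative cells, with a median of 2919 UMIs against 1875, and close to the intermediate cells with 2944. Their median number of detected genes was 1368 against 923 and 1358. Mitochondrial transcripts made up a median of 5.76% of UMIs in members, 5.83% in intermediate cells and 6.64% in score-negative cells. Of the members, 62 (10.7%) were among the deepest 5% of all cells, against 23 (1.09%) of the score-negative cells. The libraries shared 39 to 76 barcodes per pair, but no member carried a barcode found in another library.

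The score was sparse. Members held 2 to 40 score UMIs with a median of 6, 106 of them (18.2%) held 2 or 3, and 173 held 10 or more. Score UMIs made up 0.130% of the UMIs of the lowest member and 0.129% of those of the highest cell outside, so the limit cuts through a continuous range. CENPF, a kinetochore protein of G2 and mitosis, gave 1475 of the 4727 score UMIs of the members (31.2%), and TOP2A, the topoisomerase that untangles sister chromatids, gave 1299 (27.5%). CENPF was detected in 83.5% of members and TOP2A in 74.2%, but MKI67, the gene of the proliferation marker Ki-67, only in 31.2%. No member showed more than 9 of the 11 genes, and 135 members (23.2%) showed 3. These values chose the cells and are given as a description.

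UBE2C, the ubiquitin-conjugating enzyme that works with the anaphase promoting complex, was almost missing from MM.1S cells. It had 2 UMIs over all 581 members and 10 in the whole library, or 0.959 counts per 1000000 UMIs (CPM, interval 0.460 to 1.76). In the HS-5 library it had 2088 UMIs, or 340 CPM (326 to 355). Inside the coculture, where both lines share 1 library, cells were assigned to a line by 80 MM.1S-specific and 229 HS-5-specific genes. UBE2C was 1 of the 229. In a check added after the data were seen, leaving it out moved 0 cells between the lines, so the counts that follow do not rest on it. There the 1647 MM.1S cells held 8 UBE2C UMIs (6.02 CPM, 2.60 to 11.9) and the 2120 HS-5 cells held 1127 (454 CPM, 428 to 481). UBE2S, its partner enzyme in chain extension, had 10 UMIs in the MM.1S library and 223 in the HS-5 library. The score of MM.1S cells thus rested on 10 genes, and the cause of the low UBE2C count was not tested.

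Outside the score genes, the genes with the highest ratios of members over score-negative cells were mostly those of the spindle, the kinetochore and the control of mitosis. UMIs were summed over the cells of each class and scaled to CPM without the score genes, over 1919638 UMIs in members and 4434794 in score-negative cells. A log2 ratio has a pseudocount of 1 CPM. A filter kept 5224 genes whose mean level over the classes reached 20 CPM. Of these, 562 (10.8%) were at least 1.5-fold higher in members and 222 (4.25%) at least 1.5-fold lower. The median log2 ratio over all 5224 genes was 0.11. With ratios centred on this median, 391 genes were higher and 356 lower, so the balance of the directions depends on the scaling. At least 2-fold higher were 209 genes, at least 4-fold 76 and at least 8-fold 36. Of the 36, 30 stand on the G2/M lists. In the lower direction, 49 genes passed 2-fold and 5 passed 4-fold. The cells were chosen on genes of the same programme, so none of these counts is a test of it.

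Mitotic kinases and cyclins together had 2578 CPM (2507 to 2651) in members and 399 CPM (381 to 418) in score-negative cells, a log2 ratio of 2.69 (2.61 to 2.77). All 17 of the 23 list genes that passed the level filter were at least 1.5-fold higher, but 14 of them lay below 20 CPM in score-negative cells and so passed through the members' level. PLK1, the kinase that drives centrosome and spindle assembly, had 128 UMIs in members (66.7 CPM) and 6 in score-negative cells (1.35 CPM), a log2 ratio of 4.85. CCNB1, the cyclin that activates CDK1 at mitotic entry, had 674 UMIs (351 CPM, 325 to 379) against 83 (18.7 CPM, 14.9 to 23.2), a log2 ratio of 4.16. Its sister CCNB2 had 267 CPM against 14.0. CDK1 itself differed less, with 150 CPM against 16.5 and a log2 ratio of 3.12. The smallest ratios of the 17 filtered genes were those of CKS2 (1.77) and MASTL (1.78).

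Spindle proteins had a summed log2 ratio of 2.65 (2.58 to 2.71), whose interval overlaps that of the kinases and cyclins, and all 21 filtered genes at least 1.5-fold higher. Of these 21, 14 lay below 20 CPM in score-negative cells and so passed through the members' level. KIF23, a kinesin of the midzone spindle and of cytokinesis, had 240 UMIs in members and 25 in score-negative cells, or 125 against 5.64 CPM, and the highest log2 ratio (4.25) of all genes whose mean reached 50 CPM. Against all other cells its ratio was 2.38, with 2.56 for CDC20 and 2.63 for CCNB1. Cells thinned to 1000 UMIs gave 2.42, 2.43 and 2.80, but there the classes were drawn again, as 1158 members and 2712 score-negative cells. With the 581 members against 223 score-negative cells of matched depth, the ratios of KIF23, CDC20 and CCNB1 were 3.22, 4.19 and 4.31. The motor KIF4A stood at 4.13, the microtubule depolymerase KIF2C at 3.93, and the spindle pole proteins HMMR and ASPM at 4.04 and 4.02. CKAP2 was the lowest of the list at 1.40. STMN1, which destabilises microtubules, was the most abundant, with 818 CPM in members and 218 in score-negative cells.

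At the kinetochore and centromere, the summed level was 2590 CPM in members and 498 in score-negative cells, a log2 ratio of 2.38 (2.31 to 2.45), and all 22 filtered genes were at least 1.5-fold higher. Of these 22, 11 lay below 20 CPM in score-negative cells and so passed through the members' level. The chromosomal passenger genes BIRC5 and CDCA8, whose proteins accompany the kinase Aurora B, had log2 ratios of 4.08 and 3.69. BIRC5 had 368 CPM (341 to 396) against 20.7 (16.7 to 25.4). SGO2, a protector of centromeric cohesion, stood at 3.85. The lowest of the 22 was ZWILCH (1.02).

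Ratios in the list of checkpoint and anaphase genes were spread widely. CDC20, the activator of the anaphase promoting complex, had 221 CPM (200 to 243) in members against 10.8 (7.98 to 14.3), a log2 ratio of 4.23. PTTG1, securin, a regulator of the separation of sister chromatids, had the highest level of the 15 genes with the highest ratios, at 546 CPM against 40.1 (3.73). Of the subunits of the complex itself, CDC27 and CDC23 stood at 0.87 and 0.83, CDC16 at 0.54, ANAPC11 at 0.37 and ANAPC5 at 0.20. The last 3 were the only filtered genes of the 4 G2/M lists that stayed under 1.5-fold. In all, 73 of the 76 filtered G2/M genes were at least 1.5-fold higher, 44 of the 76 lay below 20 CPM in score-negative cells, and the summed G2/M level was 11761 against 2564 CPM, a log2 ratio of 2.20 (2.17 to 2.23).

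The promoters of these genes were searched for a short sequence that many of them held. The cell cycle genes homology region (CHR), with the core TTTGAA, is known as the promoter element at which late cell cycle genes are repressed in resting cells and activated in G2 and mitosis, and it often lies a short way downstream of a CCAAT box, the site of the factor NF-Y. RefSeq promoters of GRCh38.p14 (250 bases before to 50 after each gene's start) were searched for TTTGAA and CCAAT on both strands, and matches of the motifs may share bases. Of the 73 G2/M list genes at least 1.5-fold higher in members, 61 had a promoter in the table. TTTGAA was found in 37 of them (60.7%), against 399 of 4131 promoters of all filtered genes (9.66%) and 4212 of all 27305 promoters (15.4%). In the S-phase list it was found in 1 of 27 promoters of genes at least 1.5-fold higher (3.70%), and among all genes at least 1.5-fold lower in 12 of 161 (7.45%). CCAAT was common in every group, in 72.1% of the G2/M promoters, 63.0% of the S-phase promoters and 39.5% of all filtered genes. Both motifs were present in 28 of the 61 G2/M promoters (45.9%) and in 4.16% of those of all filtered genes. Among higher genes that stand on no list, 56 of 350 promoters (16%) held TTTGAA.

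The 120 bases before the start are shown for the first 5 of the 15 genes with the highest ratios that held both motifs there, and for CCNB1, which held CCAAT but no TTTGAA in this window. They show how closely the motifs lie to each other. Capitals mark matches of the CHR core and of the CCAAT box on either strand. All are on the plus strand of GRCh38.p14, and the starts are those of RefSeq, while GENCODE 29 starts these genes further upstream, inside the window for KIF23, CDC20, CCNB2 and KIF4A and before it for HMMR and CCNB1. KIF23 is at chr15:69414229-69414348, CDC20 at chr1:43358861-43358980, CCNB2 at chr15:59105026-59105145, KIF4A at chrX:70289984-70290103, HMMR at chr5:163460512-163460631 and CCNB1 at chr5:69167030-69167149.
KIF23: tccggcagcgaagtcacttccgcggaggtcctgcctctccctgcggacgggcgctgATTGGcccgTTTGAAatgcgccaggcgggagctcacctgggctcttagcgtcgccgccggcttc
CDC20: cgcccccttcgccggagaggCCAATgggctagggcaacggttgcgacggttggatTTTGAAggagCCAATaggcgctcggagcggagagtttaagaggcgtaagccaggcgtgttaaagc
CCNB2: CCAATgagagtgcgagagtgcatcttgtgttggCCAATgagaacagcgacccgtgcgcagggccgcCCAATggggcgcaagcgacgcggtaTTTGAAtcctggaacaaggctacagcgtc
KIF4A: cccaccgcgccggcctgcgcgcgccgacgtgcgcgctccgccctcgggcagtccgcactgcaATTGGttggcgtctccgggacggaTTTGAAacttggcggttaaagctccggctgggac
HMMR: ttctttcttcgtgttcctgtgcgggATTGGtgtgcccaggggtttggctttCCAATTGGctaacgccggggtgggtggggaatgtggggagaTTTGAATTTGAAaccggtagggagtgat
CCNB1: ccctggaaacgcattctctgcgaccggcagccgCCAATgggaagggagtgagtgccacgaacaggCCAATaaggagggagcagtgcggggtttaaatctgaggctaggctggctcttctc
In KIF23 the TTTGAA match began 55 bases before the start and followed a reversed CCAAT box. In KIF4A it began 34 bases before the start and in CCNB2 29. HMMR held the core in tandem. Of the 14 promoters available for the 15 genes, 10 held TTTGAA in these 120 bases, 11 held CCAAT and 9 held both. A match is a description of the letters and not a bound site.

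Genes of S phase were higher in members too, but by less. The 45 genes of DNA replication had 5117 CPM in members and 2554 in score-negative cells, a log2 ratio of 1.00 (0.96 to 1.04), and 32 of the 36 filtered genes were at least 1.5-fold higher. TK1, thymidine kinase, led with 170 against 41.0 CPM (2.02), followed by RAD51AP1 of homologous recombination (1.94) and RRM2, a subunit of ribonucleotide reductase (1.80). The licensing genes MCM5 and MCM6 stood at 0.36 and 0.68, and UNG, a uracil glycosylase, had 36.5 against 35.4 CPM (0.04). The size of this difference depended on the comparison, since against all other cells instead of score-negative cells the log2 ratio of the list was 0.34.

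The levels of the lists were also followed over cells ranked by the score, which measures neither time nor phase. The intermediate cells were cut into 3 equal groups and the members into the 291 lower and 290 upper members. From score-negative cells to upper members, the 6 groups gave G2/M levels of 2564, 5291, 6352, 7687, 9621 and 13895 CPM, higher at each step. The S-phase list had 2554, 5213, 6027, 6038, 5450 and 4785 CPM, so its highest levels lay in the intermediate cells, and the upper members were lower than each intermediate group. PCNA, the sliding clamp of DNA polymerase, had 247 CPM (220 to 277) in the highest intermediate group and 134 (112 to 160) in the upper members. MCM6 went from 129 CPM in that group to 86.4 CPM in the upper members. TYMS did not follow this pattern, with 106 CPM in that group and 127 in the upper members. CCNB1 had 155 CPM (134 to 180) in that group, 212 in the lower members and 490 in the upper members. The groups were cut on the score, so the G2/M levels follow it by construction.

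**Figure D1:**
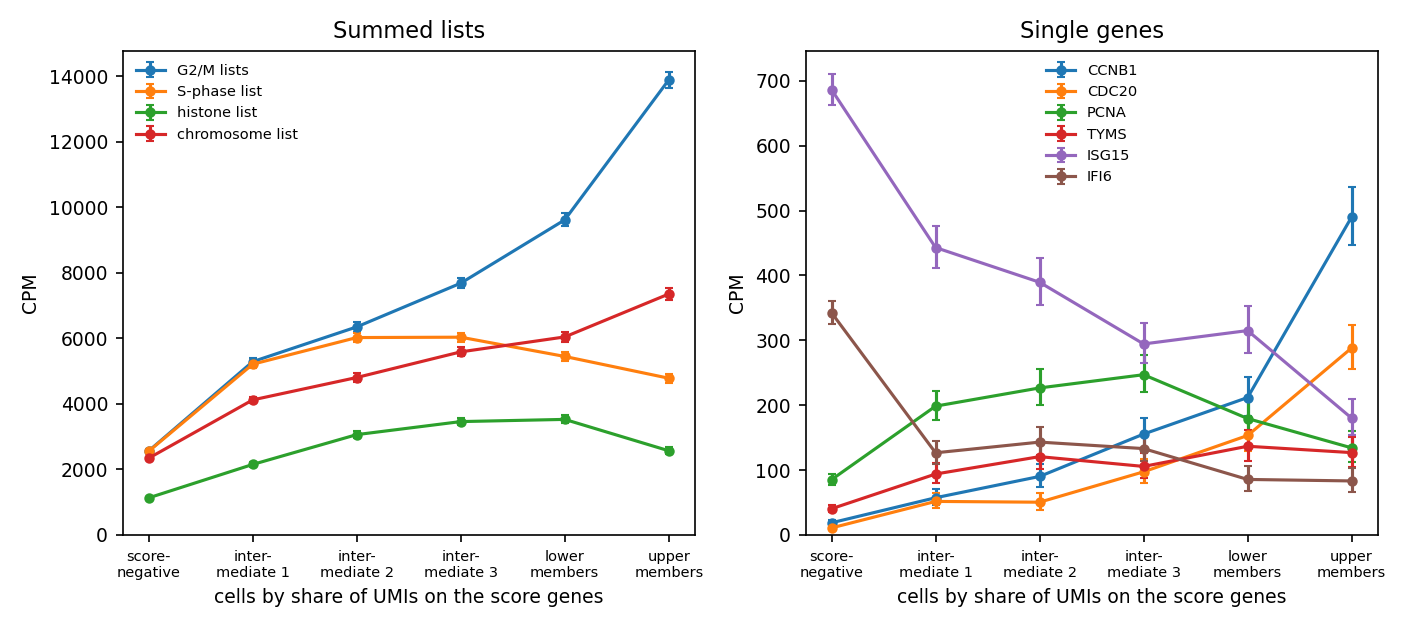
Levels in CPM (y axes) over 6 groups of cells ordered by the share of UMIs on the score genes (x axes), for 4 summed lists (left) and 6 genes (right); bars are exact 95% Poisson intervals. The G2/M lists are higher at each step up to 13895 CPM, the S-phase list is highest at 6038 CPM in intermediate cells, and ISG15 goes from 686 CPM in score-negative cells to 180 CPM in the upper members.

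Histone genes split into a higher and a lower group. Replication-dependent histone mRNAs mostly lack the poly(A) tail by which Drop-seq captures RNA, so the counts cover only the tailed fraction. HIST1H4C gave most of the list's UMIs, with 4700 in members (2448 CPM) and 2721 in score-negative cells (614 CPM), a log2 ratio of 2.00. It was highest in the lower members (2784 CPM) and lower in the upper members (2113 CPM). The linker histone HIST1H1D and HIST1H2AM were also higher, with log2 ratios of 2.00 and 2.09, and the linker histone HIST1H1E had 166 against 57.7 CPM. In contrast, HIST1H2AC had 60 UMIs in members and 537 in score-negative cells, a log2 ratio of -1.92, and HIST1H1C had 80.7 against 160 CPM (-0.98). HIST1H2BD, a histone H2B gene outside the list, had the lowest ratio of all genes whose mean reached 50 CPM, with 14.6 against 141 CPM (-3.19). The highest intermediate group was already low, with 18.3 CPM of HIST1H2BD and 31.6 CPM of HIST1H2AC. The lower members had 10.4 and 39.6 CPM, and the upper members 18.7 and 22.9 CPM. A UMI of HIST1H2BD was found in 4.48% of members and 22.2% of score-negative cells. With each cell thinned to 1000 UMIs, the shares were 1.72% (exact interval 0.828 to 3.14%) and 12.2% (10.8 to 13.7%).

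Chromosome structure proteins were higher as a group, with 6702 against 2343 CPM (1.52, 1.48 to 1.55) and 21 of 23 filtered genes at least 1.5-fold higher. The condensin subunit NCAPG led at 3.53. HMGB2, a chromatin protein, had 1032 CPM in members and 144 in score-negative cells (2.83), and the cohesin subunits RAD21 and SMC3 stood at 1.15 and 0.77. Of the tubulins, TUBB had 651 against 200 CPM (1.70) and TUBA1A 144 against 352 UMIs (-0.08). TUBA1B, usually an abundant gene, had 18 UMIs in the whole MM.1S library and 5 in the HS-5 library. It has near-identical copies among which counting can lose reads, so the tubulin list is uncertain. The transcription factors that control the programme were scarce. Of 18 factors, 4 passed the filter, of which E2F3 was past 1.5-fold (0.66). Below the filter, FOXM1 had 41 UMIs in members and 17 in score-negative cells (21.4 against 3.83 CPM, 2.21), E2F8 and LIN54 stood at 2.21 and 1.96, and MYBL2 had 22 and 28 UMIs (11.5 against 6.31 CPM, 0.77).

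Counted per cell, members tended to hold more UMIs on the G2/M genes than the other classes, with overlap. They were chosen on genes of the same programme, so a higher count follows from the choice. With every cell thinned to 1000 UMIs, members held 1 to 40 UMIs on the G2/M lists with a median of 10, intermediate cells a median of 6 and score-negative cells a median of 2. At least 7 such UMIs were found in 446 members (76.8%), 495 intermediate cells (42.1%) and 142 score-negative cells (6.72%). None of the members but 346 score-negative cells (16.4%) held none. At the other end, 23 members (3.96%) held 2 or fewer. Before thinning, those 23 cells were shallower (median 1677 UMIs) than the 446 (3198 UMIs). Their UMIs of CENPF were as frequent, at 1.09 per 1000 (25 UMIs) against 0.821 (366 UMIs). KIF20B (6 UMIs) and KIF14 (3 UMIs) had 0.261 and 0.130 per 1000 against 0.267 and 0.123. TOP2A was less frequent, at 0.304 per 1000 (7 UMIs) against 0.709 (316 UMIs). CENPE and UBE2C had 1 UMI each in the 23 cells, and MKI67, TPX2, ANLN, CKAP2L and CEP55 had none. All of these are score genes, so this describes how the members were chosen.

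**Figure D2:**
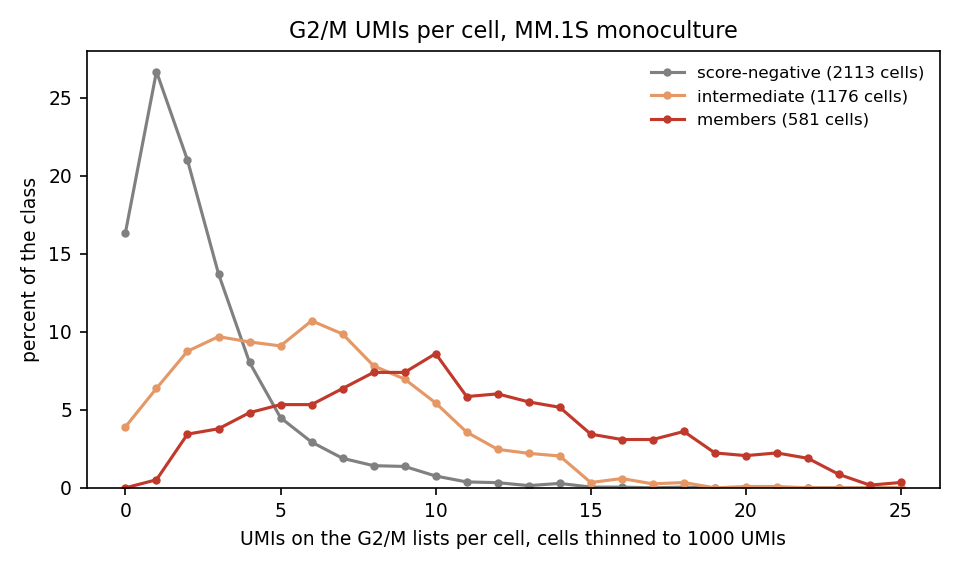
UMIs on the 4 G2/M lists per cell after thinning to 1000 UMIs (x axis) against the percent of cells of each class (y axis), up to 25 UMIs; score genes are left out of the lists. The classes overlap, with medians of 10 in 581 members, 6 in 1176 intermediate cells and 2 in 2113 score-negative cells.

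More genes of the interferon response list than of any other list were at least 1.5-fold lower in members. Of 21 filtered genes, 13 were at least 1.5-fold lower, against 4.25% of all genes, and none higher, and the summed level was 12277 CPM in members against 15347 (-0.32, -0.34 to -0.30). The highest intermediate group was close to the members in this sum, with 12350 CPM against 12497 in the lower members. The sum is carried by B2M and the HLA genes, which differed little (B2M, the light chain of class I MHC, 8691 against 10330 CPM, -0.25). IFI6, a mitochondrial interferon-induced protein, had 84.4 CPM (71.9 to 98.4) against 342 (326 to 360), a log2 ratio of -2.01. ISG15, a ubiquitin-like modifier, had 247 CPM (226 to 271) against 686 (662 to 711), or -1.47, and IFI27 and ISG20 stood at -1.91 and -1.68. In the highest intermediate group IFI6 and IFI27 had 133 and 43 CPM, above 85.5 and 25 in the lower members. ISG15 and ISG20 had 294 and 59.9 CPM there, close to 315 and 62.6 in the lower members. The upper members had 180 and 56.2 CPM of these 2 genes. After thinning, an ISG15 UMI was found in 17.9% of members and 34.5% of score-negative cells. The ISG15 UMIs of members were uneven, since 1 cell held 60 of the 475. Cells in the top 5% of the interferon list (212 cells with ties, median 1702 UMIs) included 13 members, or 6.13% (3.31 to 10.3%), against 15.01% of all cells. Of 238 cells in the top 5% of the histone list, 75 were members (31.5%, 25.7 to 37.8%). Members are deeper than score-negative cells, and the part of depth in these shares was not tested. Against 223 score-negative cells of matched depth, the summed log2 ratio of the interferon list was -0.22. IFI6, ISG15, IFI27 and ISG20 had -1.77, -1.58, -1.62 and -1.72 in that comparison.

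The remaining low genes were of mixed kinds. PRSS2, a trypsinogen gene whose close paralogs make its counts uncertain, had 269 UMIs in members and 3216 in score-negative cells (140 against 725 CPM, -2.36), found in 63 and 376 cells, with up to 127 UMIs in 1 cell. BTG2, an antiproliferative gene induced by p53, had 121 against 280 CPM (-1.21). AZGP1, a secreted glycoprotein, and CCDC18-AS1, an antisense RNA whose reads cannot be told from its partner's where counting ignores strand, stood at -1.32 and -1.82. In the highest intermediate group BTG2 and AZGP1 had 144 and 46 CPM, close to 128 and 48 in the lower members. PRSS2 and CCDC18-AS1 had 417 and 59 CPM there, above 127 and 25 in the lower members. CDKN1C, the CDK inhibitor p57, had 14.1 against 46.7 CPM (-1.66) and was the lowest of the G1 list. In the same list CDKN3, a phosphatase of CDK1 and CDK2, had 85.9 against 5.86 CPM (3.66), whereas the D-type cyclin CCND2 hardly differed (831 against 803 CPM, 0.05).

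Genes of plasma cell identity and antibody production had a summed level of 50007 CPM in members and 63113 in score-negative cells (-0.34, -0.35 to -0.33), with no gene at least 1.5-fold lower. The highest intermediate group was close to the members, with 51374 CPM against 50507 in the lower members. The lambda light chain IGLC2 had 31646 CPM in members and 41235 in score-negative cells (-0.38), JCHAIN had 6231 against 7443 (-0.26) and MZB1, an ER chaperone partner of immunoglobulin, 2454 against 2468 (-0.01). The transcription factor IRF4, on which myeloma cells depend, was the only filtered gene of the 15 past 1.5-fold, with 153 against 85.7 CPM (0.83). Over all genes, 10.8% were at least 1.5-fold higher. IRF4 had 187 CPM (161 to 217) in the upper members and 118 (97.2 to 142) in the lower. The 3 intermediate groups had 133, 112 and 119 CPM, so the lower members did not differ from them. SDC1, the plasma cell marker CD138, had 45.8 against 32.5 CPM (0.48). No gene of the 30 in the ER and unfolded protein response list was at least 1.5-fold higher and 2 (against 4.25% of all genes) were lower, namely DNAJB9 (-0.99) and HERPUD1 (-0.69). The defining stromal genes of the other line, COL1A1, COL1A2 and COL6A1, had 1, 1 and 0 UMIs over all members. S100A6, LGALS1, CAV1, FN1 and TIMP1 of the stromal list passed the filter in MM.1S cells, and the list sum was 5686 CPM in members against 7218.

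Chaperones had a higher summed level in members than in score-negative cells. Of 19 filtered genes, 7 were at least 1.5-fold higher, against 10.8% of all genes, and the sum was 9940 against 6822 CPM (0.54, 0.52 to 0.57). HSPA1B, DNAJB1 and HSPH1 of the heat shock response led with 0.99, 0.95 and 0.86. Genes of ribosome biogenesis in the nucleolus had a summed log2 ratio of 0.41 with 3 of 19 past 1.5-fold, led by NOP56 (0.62), NCL (0.62) and FBL (0.60), and those of glycolysis 0.28 with 1 of 13 (SLC2A1, 0.73). GAPDH, usually an abundant glycolysis gene, had 499 UMIs in the whole MM.1S library and 218 in the HS-5 library. The G1 kinase CDK4 had 25 and 2. The cause of these low counts was not tested, so the glycolysis and G1 sums are uncertain. In the highest intermediate group, chaperones, ribosome biogenesis and glycolysis had 9833, 6268 and 7094 CPM. The lower members were close to this group, with 9767, 6144 and 7325 CPM. Cytosolic ribosomal proteins (-0.18) and mitochondrial mRNAs (-0.14) were lower in sum with no gene past 1.5-fold. Immediate early genes (-0.05) and NF-κB targets (-0.03) had intervals that include 0, and NFKBIA, the inhibitor induced by NF-κB, had 101 against 96.1 CPM. MALAT1, a nuclear RNA, was lowest in the middle of the score range, with 42454 CPM in score-negative cells, 29883 in the highest intermediate group and 39023 in the upper members.

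The same rule was applied to the MM.1S cells of the coculture and to the HS-5 monoculture, to show where the MM.1S members differ. It took 57 of 378 MM.1S cells with at least 1000 UMIs in coculture (141 score-negative) and 271 of 1802 HS-5 cells (133 score-negative). At 1000 UMIs, a score UMI was present in 29.9% of MM.1S monoculture cells, 52.7% of MM.1S cells in coculture and 87.2% of HS-5 cells, so a fixed top 15% is a different class in each. Coculture cells counted as MM.1S could hold an HS-5 share of up to 0.2. HS-5 cells had a mean of 8.75 score UMIs per 1000, against 0.57 in MM.1S monoculture. The part of HS-5 RNA in the 52.7% was not tested. Only 378 of the 1647 MM.1S cells in coculture reached 1000 UMIs. In HS-5, 15.8% of 6757 filtered genes were at least 1.5-fold higher and 17.4% lower. The summed G2/M lists had log2 ratios of 2.79 (2.69 to 2.90) in HS-5 and 1.52 (1.38 to 1.66) in MM.1S coculture cells, against 2.20 in MM.1S monoculture. The S-phase list was the clearest difference, lower in HS-5 members with 4004 against 5452 CPM (-0.45, -0.55 to -0.34). It was slightly higher in MM.1S coculture members, with 6023 against 5219 CPM (0.21, 0.05 to 0.36). There the median log2 ratio of its 41 filtered genes was 0.11, against 0.04 over all 5818 filtered genes. MCM6 and UNG, higher or equal in MM.1S members, had HS-5 log2 ratios of -3.40 (11 against 53 UMIs) and -2.28 (9 against 20 UMIs).

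Of 4205 genes that passed the filter in both monocultures, 489 were at least 1.5-fold higher in MM.1S members and 613 in HS-5 members. They shared 191, which is 39.1% of the MM.1S genes, where 14.6% of the 4205 were higher in HS-5, and 31.2% of the HS-5 genes, where 11.6% of the 4205 were higher in MM.1S. In the lower direction, 20 genes were shared by 106 in MM.1S (18.9%) and 597 in HS-5 (3.35%), near the shares of 14.2% and 2.52% over the 4205 genes. The 15 genes with the highest ratios in MM.1S monoculture were higher in members of all 3 sets of cells. In the MM.1S coculture cells CCNB1 had 54 against 6 UMIs, and NCAPG, with 10 against 6, had the lowest ratio of the 15 (1.68). The low genes were less alike. IFI6 had 5 and 25 UMIs in coculture members and score-negative cells (53.4 against 136 CPM) and ISG15 had 21 and 83 (224 against 450 CPM), both lower as in monoculture. PRSS2 had 278 and 277 CPM there, a log2 ratio of 0.00, and no UMI in either HS-5 class.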

How the data were processed

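The authors deposited whole-number UMI counts per gene and cell barcode from Drop-seq, without normalization, 1 file per library. The submitters' processing notes name Cell Ranger 3.0.2, UMI-tools 1.0.0, STAR 2.5.3a, Subread, featureCounts 1.6.4, SAMtools 1.9 and GRCh38, and the paper names Seurat. How barcodes were chosen is not given in the sources used here. The labels give about 4000 cells per condition, and the files hold 3994, 3865 and 3963 barcodes.

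Cells with at least 1000 UMIs were scored, counts were summed per class and scaled to CPM without the score genes (Python 3.11.15, numpy 2.4.6, scipy 1.17.1, pandas 2.3.3). Intervals are exact Poisson (CPM), exact conditional binomial (ratios of sums) or Clopper-Pearson (shares) at 95%. Coculture cells were assigned to MM.1S below an HS-5 share of 0.2 and to HS-5 above 0.8 of the UMIs on 80 MM.1S-specific and 229 HS-5-specific genes, 50-fold or more above the other line's monoculture. No doublet caller was run, and the alternatives include leaving out the deepest 5% of cells. The members and lists were chosen with earlier results of these data known. Genes named are the 11 score genes, the 15 highest and 10 lowest ratios above a mean of 50 CPM, the 3 highest and 3 lowest genes of each list and list genes past 1.5-fold as examples. Other genes, among them the subunits, factors and low counts listed beside them, were named after their values were seen. The ratios and their intervals were tested on simulated Poisson sums, which hold no spread between cells, and thinned cells were checked to reach their target. The choice of members, the assignment of coculture cells and the promoter search were not simulated. The 14 alternatives changed the score, its limit, the comparison cells, depth, scaling, filter and pseudocount.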

Additional observations from a re-analysis of the deposited data

Results flagged for a closer look

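In 5 gene lists the summed log2 ratio of members over score-negative cells had opposite signs in MM.1S and HS-5 monoculture, with intervals that leave out 0 in both. Chaperones also differed in sign, with 0.54 and -0.01, but their HS-5 interval includes 0 (-0.07 to 0.05). With 1 library per line, the difference between the lines was not tested. The DNA replication and S-phase list had 1.00 in MM.1S and -0.45 in HS-5. The list of G1 cyclins, their kinases and CDK inhibitors had 0.19 and -0.17. Nucleolar ribosome biogenesis had 0.41 and -0.17, and glycolysis 0.28 and -0.20. The G1 and glycolysis sums are uncertain, because CDK4 and GAPDH had low counts in both lines. The nuclear long non-coding RNAs, of which MALAT1 gives most of the UMIs, went the other way with -0.21 and 0.23. In the HS-5 cells of the coculture, the G1 list had 0.05 (-0.11 to 0.22), so its sign turned, and the S-phase list had -0.15. The score-negative cells are 54.6% of MM.1S cells and 7.38% of HS-5 cells, so the cells compared with are a different part of each line.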

How the results depend on the processing

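No paired analysis was possible because each condition is 1 library. Both ratios stayed above 0 under the 14 alternatives, and cells of 1 library give no replicate check. The main values were 562 genes higher, 222 lower, a G2/M log2 ratio of 2.20 and an S-phase ratio of 1.00. Against all other cells they were 269, 103, 1.43 and 0.34. Without a filter 5718 and 5580 genes passed, and at 100 CPM 134 and 28, with ratios of 2.01 and 0.96. Centring on the median gene (shift 0.11) gave 391 higher and 356 lower, with 2.09 and 0.89, and the Seurat tutorial's limits on cells (164 members) gave 407 lower, with 2.02 and 0.51. The G2/M and S-phase ratios were 2.54 and 0.87 for the top 5% of the score, 1.99 and 1.10 for the top 25%, 1.36 and 0.74 after thinning to 1000 UMIs (where ties at 1 UMI made 1158 members), 1.80 and 0.74 with 6 score genes and 2.11 and 0.83 against 223 score-negative cells of matched depth. The S-phase ratio was 0.82 with a higher minimum of UMIs per cell and 1.08 for the mean over cells, and the G2/M ratio 2.12 without the deepest 5% of cells. Mitochondrial mRNAs reversed once, at 0.01 under the tutorial's limits. These limits cap the mitochondrial share of a cell, so they select cells on this quantity itself. The cause of these shifts was not tested. Of 630 other values, 348 stayed within their counting interval and 281 moved beyond it. Of the 348, 46 came from the setting without a filter, which cannot change them. The filter at 100 CPM likewise cannot change the ratio of a single gene. Depth limits single genes, since a member held a median of 6 score UMIs.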

Other observations

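Some genes far from equal between the classes stood on no list and were noticed after their values were seen. At least 4-fold higher in members were 15 such genes. TROAP, a microtubule-associated protein of the spindle, had 140 UMIs in members and 11 in score-negative cells (72.9 against 2.48 CPM, log2 ratio 4.41). PRR11 had 83.9 against 6.09 CPM (3.58), DIAPH3, an actin nucleator of the formin family, 73.4 against 7.89 (3.07), and KPNA2, a nuclear import receptor, 202 against 42.8 (2.21). CDCA5 and ESCO2, which establish sister chromatid cohesion, stood at 2.68 and 2.56. TROAP, PRR11, KPNA2, CDCA5 and ESCO2 were also higher in HS-5 members, by 4.00, 2.92, 2.98, 1.91 and 3.26.

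CXCR4, the chemokine receptor by which plasma cells home to bone marrow, was among them. It had 101 UMIs in 90 members and 45 UMIs in 42 score-negative cells, or 52.6 against 10.1 CPM (2.27). Over the 6 groups of cells ranked by score it had 10.1, 22.1, 28.1, 39.9, 51.1 and 54.1 CPM. In the MM.1S coculture cells it had 4 UMIs in each class (42.7 against 21.7 CPM), and in HS-5 none in either.

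PATZ1, a zinc finger transcription factor, had a log2 ratio of 3.04, but 66 of its 71 UMIs in members came from 1 cell. NUPR1, a stress-induced nuclear protein, had 10 UMIs in members and 161 in score-negative cells (-2.59), and 1 score-negative cell held 53 of the 161. In contrast, LGMN, the lysosomal protease legumain, was lower across many cells, with 2178 UMIs in 494 members and 11168 in 1930 score-negative cells (1135 against 2518 CPM, -1.15). Its level was 2518 CPM in score-negative cells, 1245 in the highest intermediate group and 1016 in the upper members.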
